A study of Homo sapiens with 6 samples.

Results

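Copying the genome depends on proteins made ahead of and during S phase. The origin recognition complex marks start sites, CDC6 and CDT1 load the MCM2 to MCM7 helicase there, and CDC7 kinase, MCM10, CDC45 and the GINS complex turn the loaded helicase into a moving fork. Polymerase alpha with its primase starts each strand, polymerases delta and epsilon extend it behind the PCNA clamp, and many of the genes are transcribed under E2F control in late G1.

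The 50 genes described here encode these factors, with the nick-sealing, uracil-removing and histone-depositing proteins that travel with the fork and the transcription factor E2F1. They were chosen by symbol, with earlier results of these data known, and all 50 had a row among the 15024 genes of the deposited table. POLA2 had a further row under another gene identifier, so the symbols matched 51 rows. RNA sequencing was done on Mll3-null MDA-MB-231 cells, a human triple-negative breast cancer line lacking the histone methyltransferase encoded by KMT2C. All samples had been kept for 14 days in 10 µM forskolin, which raises cAMP. They were sorted by flow cytometry into CD44+CD104high cells (n = 3), the study's hybrid epithelial and mesenchymal state, and CD44+CD104-/low cells (n = 3), its mesenchymal state, called CD104high and CD104low below. The labels call the samples biological replicates, name no separate cultures or dates and do not say how many clones carried the deletion, so the p-values below reflect variation among these 6 libraries, which may be technical. Wild-type cells of the study are not analysed here.

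Each library had 49791498 to 60069719 reads on the listed genes, and values are reads scaled by the authors for library size. ITGB4, which encodes the CD104 protein used for the sort, was at 15445, 14508 and 19435 scaled reads in CD104high and 1492, 2273 and 1333 in CD104low (log2 fold change 3.30), and CD44 was at 26496, 22069.5 and 28210.4 scaled reads in CD104high and 25001, 23282 and 25669 in CD104low (log2 fold change 0.05, limma adjusted p = 0.708). KMT2C was at 3934, 3561 and 3952 scaled reads in CD104high and 2095, 2611 and 2814 in CD104low, which cannot check the deletion because reads were counted over the gene as a unit. The mesenchymal marker VIM (0.06) and the epithelial marker EPCAM (-0.32) did not pass the test. The receptor gene ERBB2 rose (0.33, limma adjusted p = 0.00621, or 0.07 with adjusted p = 0.355 once transcript length and GC content were corrected for). CDH1, ESR1 and PGR had no row in the deposited table. Of 9 markers of blood, endothelial and liver cells 3 had a row (CD14, LAPTM5 and PECAM1), and CD14 and LAPTM5 rose. PECAM1 was at 4.58, 8.83 and 4.06 scaled reads in CD104high and 11.06, 4.04 and 14.6 in CD104low, too few to be tested. Summed scaled counts of the 3 were 684 to 939.9 in CD104high and 331 to 414 in CD104low libraries. The part of these markers in the results below was not tested. Replicate 2 of CD104low stood apart from the other two of its population for the replication genes, being the lowest of the 3 in 43 of the 50 genes.

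Most of the replication genes fell in CD104high cells. Of the 50 genes 30 fell and 0 rose in limma with Benjamini-Hochberg adjustment over 14420 tested genes, where 21.6% of all tested genes fell and 21.8% rose. At an unadjusted p under 0.05 the counts were 34 and 0, and edgeR and DESeq2 called 32 and 33 lower and 0 higher. The authors' deposited table held 33 of the 50 as lower and 0 as higher at an adjusted p under 0.05, against 22.6% and 23.1% of all tested genes. The median log2 fold change of the 50 was -0.28, or 0.826-fold, against a median of 0.02 over all tested genes, and 46 of the 50 lay below 0, as did 48.3% of all tested genes. The falls in this limma fit were modest, since no gene reached a log2 fold change of 1 in size and 8 lay below -0.5. At their lowest among 19 alternative fits RPA3 was at -1.13 and PRIM1 at -1.01. Populations did not overlap for 30 genes in the lower direction and 2 in the higher, against 26.9% and 27.4% of all tested genes. In bulk libraries, fewer cells in S phase and less of these transcripts per cell cannot be told apart.

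**Figure D1:**
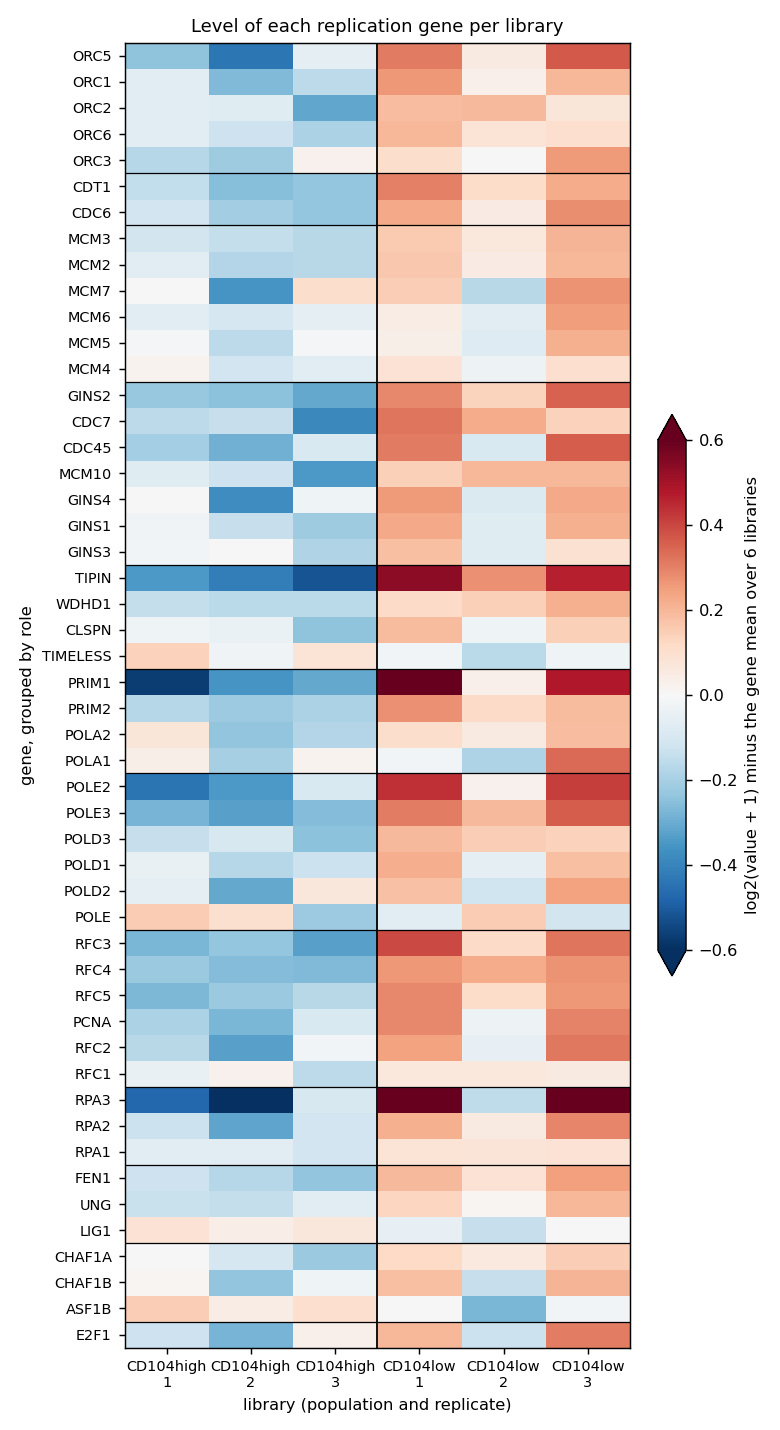
Each row is a replication gene and each column a library, with CD104high on the left and CD104low on the right. Colour gives log2(value + 1) minus the mean of that gene over the 6 libraries, with blue for low and red for high. Most rows are blue in all 3 CD104high columns, while TIMELESS, LIG1 and ASF1B run the other way and replicate 2 of CD104low is the palest of its population.

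The median over the 50 genes, taken relative to the CD104low mean on the log2 scale, was -0.25, -0.34 and -0.30 in CD104high replicates 1 to 3 and 0.06, -0.13 and 0.07 in CD104low replicates 1 to 3. All 3 CD104high libraries lay below all 3 CD104low libraries on this measure. In each CD104high library 46 genes lay below their CD104low mean, but so did 46 in replicate 2 of CD104low, against 8 and 7 in replicates 1 and 3 of CD104low. The count of called falls was 19 without replicate 1 of CD104low and 39 without replicate 2 of CD104low. Without replicate 2 of CD104low the genes that newly passed were CHAF1B, CLSPN, E2F1, GINS1, GINS4, MCM6, ORC3, POLD1 and POLD2, with limma adjusted p between 0.00637 and 0.0459.

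E2F sites near the start are a known feature of replication genes, so their promoters are shown before the single values. The 250 bases before the RefSeq start (GRCh38.p14) were found for 44 genes, and for GINS4, MCM4, MCM5, POLD3, RPA2 and RPA3 none is given. Many of these windows overlap annotated GENCODE 29 exons on the strand of the gene. Those of CDT1 and GINS2 lie inside the gene bounds given below. Promoter here means only the bases before the RefSeq start. The E2F letters TTTCCCGC, TTTGGCGC, TTTCGCGC or TTTGCCGC on either strand occurred in 13 of the 44 (29.5%), against 4.46% of the 11154 promoters of tested genes and 2.79% of all 27305 promoters of the same length. Here are 30 bases from each of the 13, written 5′ to 3′ on the strand of the gene, with matches in capitals. They show how similar sites stand before genes that fell (the first 5) and genes that did not pass (the other 8). A match is a description of letters, not evidence of binding.
RFC3 (chr13:33818083-33818112, plus strand): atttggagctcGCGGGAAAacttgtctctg
GINS2 (chr16:85688967-85688996, minus strand): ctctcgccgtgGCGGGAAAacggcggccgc
CDT1 (chr16:88803743-88803772, plus strand): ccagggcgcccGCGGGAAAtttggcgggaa
PCNA (chr20:5126663-5126692, minus strand): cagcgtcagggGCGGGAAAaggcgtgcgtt
MCM3 (chr6:52284898-52284927, minus strand): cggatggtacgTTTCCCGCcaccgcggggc
E2F1 (chr20:33686400-33686429, minus strand): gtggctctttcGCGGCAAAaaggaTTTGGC
ORC3 (chr6:87590105-87590134, plus strand): ctgcagccgcgagggcgcGCGGGAAAtccc
POLA2 (chr11:65261898-65261927, plus strand): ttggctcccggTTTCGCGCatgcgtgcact
MCM7 (chr7:100101566-100101595, minus strand): cagctcggaccGCGGGAAAcccggcgcctg
MCM6 (chr2:135876577-135876606, minus strand): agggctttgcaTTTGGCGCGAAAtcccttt
POLA1 (chrX:24693770-24693799, plus strand): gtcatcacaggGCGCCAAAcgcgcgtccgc
POLE (chr12:132687343-132687372, minus strand): ctgggtgggagcGCGCCAAAtttctcccct
LIG1 (chr19:48170440-48170469, minus strand): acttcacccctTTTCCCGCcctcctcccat

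Of the 13 genes with a match 5 fell, with a median log2 fold change of -0.24, and of the 31 without a match 22 fell, with a median of -0.31. Over all tested genes with a promoter the split ran the other way, with a median of -0.08 with a match and 0.02 without. Of all tested genes 21.6% fell, and that share was not split by a match, so the 2 counts have no matching background. MCM6 held 4 matches in its 250 bases, of which the stretch shown holds an overlapping pair, and it did not pass. The E2F1 promoter held 2 matches, and its second is cut by the end of the stretch shown. MCM7 also held 2, beginning 187 and 9 bases before the start, and the stretch shown holds only the first. The CCAAT box was present in 26 of 44 (59.1%), against 34.6% of the promoters of tested genes. Of the 26 genes 14 fell, with a median of -0.25, and of the 18 without the box 13 fell, with a median of -0.35. Over all tested genes with a promoter the medians were -0.02 with the box and 0.03 without, and the share that fell was not split by the box. The CHR letters TTTGAA or TTCGAA were in 2 of 44 (4.55%), against 9.71% of the promoters of tested genes. Windows without these letters can hold other forms of the sites.

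The origin recognition complex fell in 4 of its 5 genes. ORC5, an ATPase subunit, was at 1139.6, 998 and 1296 scaled reads in CD104high and 1674, 1400.3 and 1744 in CD104low (log2 fold change -0.49, SE 0.12, limma adjusted p = 0.0117). Every CD104high library was below every CD104low library. ORC1, the largest subunit, whose level varies through the cell cycle, was at 1339, 1171 and 1260.3 scaled reads in CD104high and 1684, 1434 and 1614 in CD104low (log2 fold change -0.33, adjusted p = 0.0203), again without overlap. ORC2 (-0.30) and ORC6 (-0.26), which encode core and accessory subunits, fell as well, and ORC3 was at -0.24 (adjusted p = 0.0721). With a correction for transcript length and GC content, described below, ORC2, ORC5 and ORC6 were at -0.18, -0.24 and -0.04, none of which passed (adjusted p = 0.121, 0.0993 and 0.679), and ORC3 was at 0.03. With replicate 1 of CD104low left out, ORC2, ORC5 and ORC6 did not pass (adjusted p = 0.077, 0.0532 and 0.0816), and ORC6 had 0.0514 without replicate 2 of CD104high. ORC2 did not pass with quantile normalization either (0.0589). ORC1 did not pass when replicate 2 of CD104high or replicate 1 or 3 of CD104low was left out (adjusted p = 0.0691, 0.0849 and 0.0646).

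Both licensing loaders fell. CDT1, which brings the helicase to origins and is destroyed once S phase begins, lies on chromosome 16 (GRCh38, 88803213 to 88809258) and was at 3959, 3684 and 3738 scaled reads in CD104high and 5419.6, 4745 and 5118 in CD104low. The libraries of the populations did not overlap, and CDT1 fell by 0.42 on the log2 scale (SE 0.07, limma adjusted p = 0.00198). CDC6, the ATPase that works with it, was at 5679.6, 5324 and 5247 scaled reads in CD104high and 7199, 6379 and 7478 in CD104low (log2 fold change -0.37, SE 0.07, adjusted p = 0.00466). Neither gene lost its call in any of the 19 alternatives run.

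Of the 6 helicase genes 2 fell. The median uncorrected log2 fold change of the 6, -0.16, was the nearest to 0 among the roles with 4 or more genes. This difference between roles was not tested. MCM3 was at 21422, 20917 and 20637 scaled reads in CD104high and 25772, 24160.2 and 26617 in CD104low (log2 fold change -0.28, SE 0.06, limma adjusted p = 0.00585) and MCM2 at 7562, 6995 and 7041 scaled reads in CD104high and 8848, 8170.3 and 9081 in CD104low (-0.27, SE 0.07, adjusted p = 0.0102). Both fell without overlap between populations. MCM4 was at 12618, 11482 and 11931 scaled reads in CD104high and 13209, 12180.2 and 13368 in CD104low, with replicate 2 of CD104low inside the range of CD104high. Its log2 fold change was -0.11 (95% interval -0.25 to 0.04, adjusted p = 0.218). MCM5 (-0.12), MCM6 (-0.15) and MCM7 (-0.17, 95% interval -0.48 to 0.15) did not pass either. MCM7 hosts the microRNA genes MIR25, MIR93 and MIR106B and had the widest SE of the 6 (0.14), at 19761, 15480.5 and 21297 scaled reads in CD104high and 21904, 17634 and 23891 in CD104low, with replicate 2 low in both populations. With the length and GC correction MCM2 was at -0.45 and MCM5 at -0.27 (adjusted p = 0.044), which passed. Both lay farther from 0 than without it, while ORC2, ORC5 and ORC6 came nearer to 0. The order of the roles thus rests on uncorrected values. MCM2 is overlapped by TPRA1 on the other strand.

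**Figure D2:**
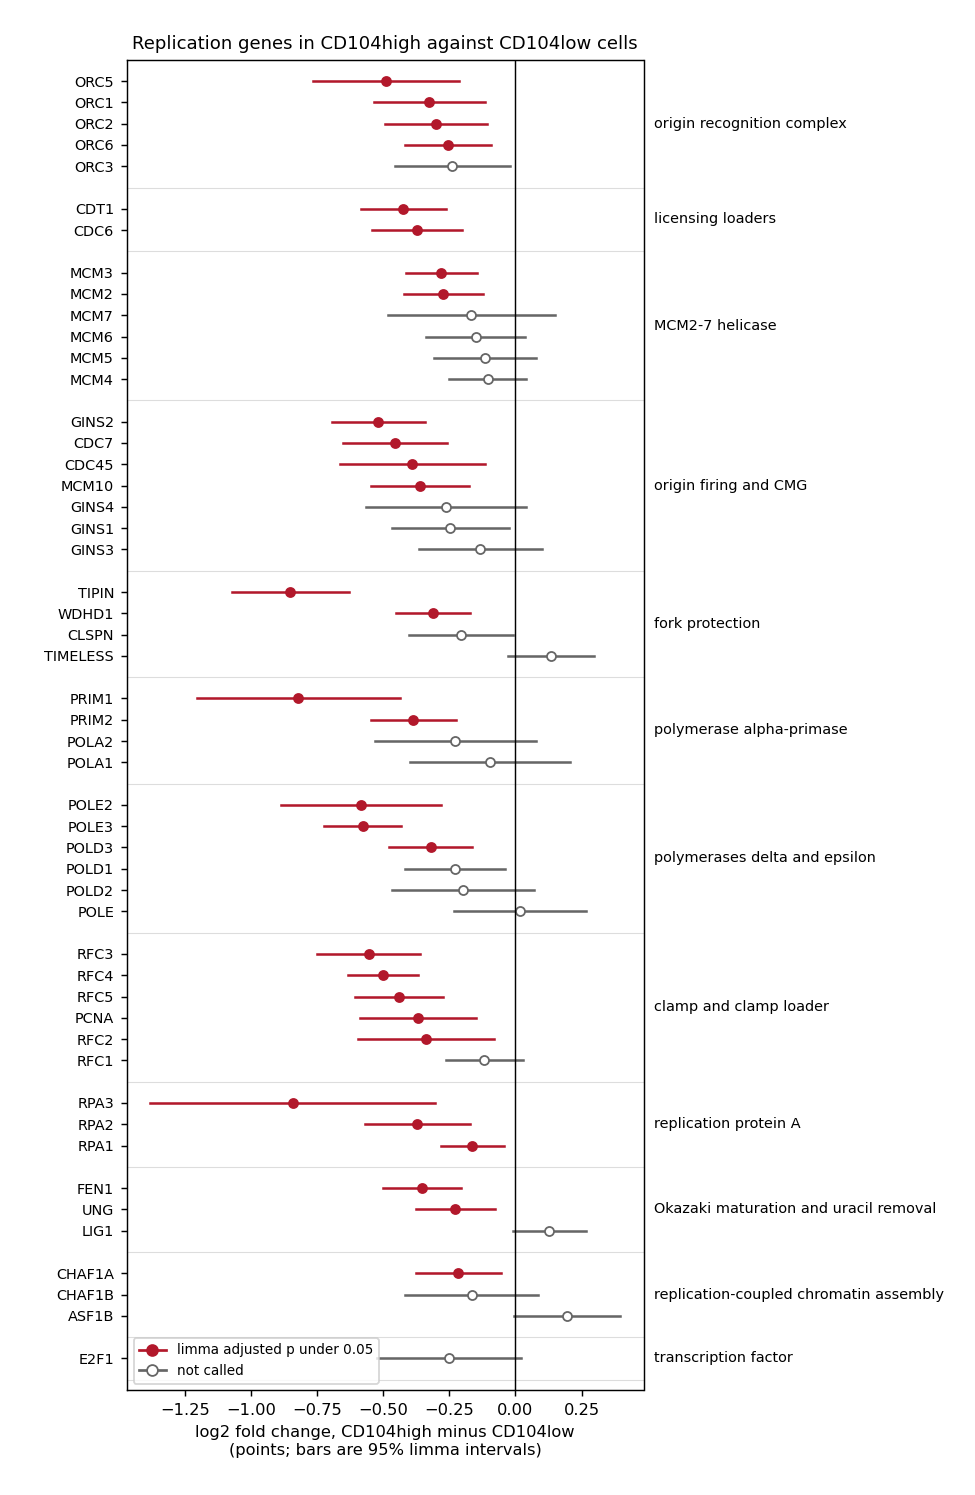
Points give the log2 fold change of each of the 50 genes, CD104high minus CD104low, with 95% limma intervals, grouped by role from origin recognition at the top to E2F1 at the bottom. Filled red points are the 30 genes with a limma adjusted p under 0.05. All of these lie left of 0, TIPIN, RPA3 and PRIM1 farthest, and the 4 genes right of 0 are open points.

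Of the 7 genes that fire origins or complete the active helicase, 4 fell. GINS2, a subunit of the GINS complex on chromosome 16 (GRCh38, 85676198 to 85690073), was at 2010.1, 1987 and 1906 scaled reads in CD104high and 2880.3, 2583 and 3011 in CD104low. CD104high values clustered tightly below all CD104low values, and the log2 fold change was -0.52 (SE 0.08, limma adjusted p = 0.00127). CDC7, the kinase that phosphorylates loaded MCM proteins, was at 3367, 3412 and 2870.3 scaled reads in CD104high and 4692, 4388 and 4127 in CD104low (-0.46, adjusted p = 0.00354), and with the length and GC correction at -0.24 (adjusted p = 0.0538). MCM10 was at 2923, 2814 and 2423 scaled reads in CD104high and 3397, 3526 and 3522 in CD104low, lower in CD104high by a log2 fold change of -0.36 (adjusted p = 0.00796). CDC45, the helicase cofactor, was at 2265, 2139 and 2449.6 scaled reads in CD104high and 3245, 2449.8 and 3359 in CD104low, so that replicate 3 of CD104high and replicate 2 of CD104low nearly met. Its fall (-0.39, SE 0.12, adjusted p = 0.0295) did not pass without replicate 1 or 2 of CD104high or replicate 1 or 3 of CD104low (adjusted p = 0.0822, 0.0868, 0.114 and 0.0986), nor in limma without the trend (0.0743). The other GINS genes, GINS1 (-0.25), GINS3 (-0.13) and GINS4 (-0.26), did not pass, although GINS1 did in DESeq2 (0.0435), in edgeR (0.0498) and, with 0.0241, in the authors' deposited table. Across the 19 alternatives the log2 fold change of GINS1 ran from -0.344 to -0.097, with adjusted p from 0.0102 to 0.431.

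TIPIN was among the genes with the largest falls, with RPA3 and PRIM1. It encodes the partner of TIMELESS in the complex that steadies stalled forks and lies on chromosome 15 (GRCh38, 66336206 to 66386746). TIPIN was at 864, 823 and 768 scaled reads in CD104high and 1595, 1329 and 1516 in CD104low, so the highest CD104high library was far below the lowest CD104low library. The log2 fold change was -0.85 (SE 0.10, limma adjusted p = 0.00048), and after the length and GC correction it was -0.56 (adjusted p = 0.0018). TIMELESS was at 4543, 4067 and 4372 scaled reads in CD104high and 4076, 3692 and 4051 in CD104low, slightly higher in CD104high on average and overlapping (log2 fold change 0.14, 95% interval -0.03 to 0.30, adjusted p = 0.155), and at -0.05 with the correction. The ratio of TIPIN to TIMELESS scaled counts was 0.19, 0.202 and 0.176 in CD104high and 0.391, 0.36 and 0.374 in CD104low replicates 1 to 3, a comparison between libraries and not of the amounts of the transcripts. WDHD1, which ties polymerase alpha to the helicase, fell (-0.31, adjusted p = 0.00431). CLSPN, the checkpoint adaptor claspin, was at 3232, 3197 and 2781 scaled reads in CD104high and 3747, 3232 and 3632 in CD104low. Replicate 1 of CD104high lay less than 1 scaled read below replicate 2 of CD104low, and the difference was not past the threshold (-0.20, adjusted p = 0.0861), though past it in the authors' deposited table (adjusted p = 0.0411).

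In polymerase alpha and its primase, both primase genes fell and both polymerase genes did not pass. PRIM1, the catalytic primase subunit on chromosome 12 (GRCh38, 56731596 to 56752373), was at 521, 605 and 625 scaled reads in CD104high and 1277, 792 and 1079 in CD104low. All CD104high libraries were lower, and replicate 2 of CD104low was the nearest to them. PRIM1 fell by 0.82 on the log2 scale (SE 0.17, limma adjusted p = 0.00512), and after the length and GC correction stood at -0.44 (adjusted p = 0.0282). It overlaps NACA on the same strand, so that reads could be shared. PRIM2, the large primase subunit, was at 1937, 1877 and 1913 scaled reads in CD104high and 2639.9, 2367 and 2487 in CD104low (-0.39, adjusted p = 0.00296), and did not pass with the correction (-0.16, adjusted p = 0.0609). POLA1, the catalytic polymerase subunit, was at -0.10 (95% interval -0.40 to 0.21) and POLA2, its regulatory subunit, at -0.23 (95% interval -0.53 to 0.08). With quantile normalization POLA2 did pass (-0.42, limma adjusted p = 0.04). The further POLA2 row, an overlapping gene model that GENCODE 29 names AP000944.2, had scaled counts of 38.4, 37.1 and 30.4 in CD104high and 25.1, 20.2 and 29.2 in CD104low (log2 fold change 0.50, limma adjusted p = 0.185), and no source used here says how reads were divided between the models.

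For polymerases delta and epsilon, 3 of 6 genes fell, and without the length and GC correction the catalytic subunits were not among them. POLE3, a small histone-fold subunit of polymerase epsilon, was at 5139, 4974 and 5207 scaled reads in CD104high and 7716, 7151 and 8037 in CD104low (log2 fold change -0.58, SE 0.06, limma adjusted p = 0.000436). POLE2, the B subunit, was at 1169, 1249 and 1487 scaled reads in CD104high and 2146, 1612 and 2114 in CD104low (-0.58, SE 0.13, adjusted p = 0.0082), or -0.36 with the length and GC correction. Both were lower without overlap. POLE, the catalytic subunit, was at 9007, 8667 and 6967 scaled reads in CD104high and 7732, 9029 and 7516 in CD104low, fully interleaved between the populations. Its log2 fold change was 0.02 (95% interval -0.23 to 0.27, adjusted p = 0.911), whereas with the correction it was -0.34 (adjusted p = 0.0104), a call in the lower direction. POLD3, an accessory subunit of polymerase delta, fell (-0.32, adjusted p = 0.0062). POLD1, the catalytic subunit, lay at the threshold (-0.23, 95% interval -0.42 to -0.04, adjusted p = 0.0513), and passed in 9 of 19 alternatives and in the authors' deposited table (adjusted p = 0.0388). With the correction POLD1, like POLE, was called lower (-0.42, adjusted p = 0.0104). POLD2 was at -0.20 (adjusted p = 0.206).

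The PCNA clamp and its loader fell in 5 of 6 genes. PCNA, the sliding clamp, encoded on chromosome 20 (GRCh38, 5114953 to 5126626), was at 10538, 9961 and 11309.9 scaled reads in CD104high and 14720.1, 11772 and 14794 in CD104low. The populations did not overlap, though replicate 2 of CD104low came close to replicate 3 of CD104high. PCNA fell by 0.37 on the log2 scale (SE 0.10, limma adjusted p = 0.0146). After the length and GC correction it was -0.13 (adjusted p = 0.182), and PCNA did not pass without replicates 1 or 3 of CD104low (adjusted p = 0.0666 and 0.0534). GENCODE 29 lists 3 PCNA pseudogenes that could share its reads. Among the loader genes, RFC3 was at 2231, 2303 and 2154 scaled reads in CD104high and 3561, 2924 and 3376 in CD104low (-0.56, adjusted p = 0.00141) and RFC4 at 2991, 2918 and 2908 scaled reads in CD104high and 4183, 4074 and 4217 in CD104low (-0.50, adjusted p = 0.000507). RFC5 (-0.44) and RFC2 (-0.34, adjusted p = 0.038) fell too, RFC2 with overlapping libraries and without passing when replicate 1 or 2 of CD104high or 1 or 3 of CD104low was left out (adjusted p = 0.0943, 0.12, 0.129 and 0.124), nor in limma without the trend (0.0904). RFC1, the large subunit, was at 5757, 6052 and 5340.1 scaled reads in CD104high and 6207, 6205 and 6165 in CD104low, without overlap and not past the threshold (-0.12, 95% interval -0.26 to 0.03, adjusted p = 0.169). With the correction RFC3 and RFC4 were at -0.27 and -0.28 and kept their calls.

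**Figure D3:**
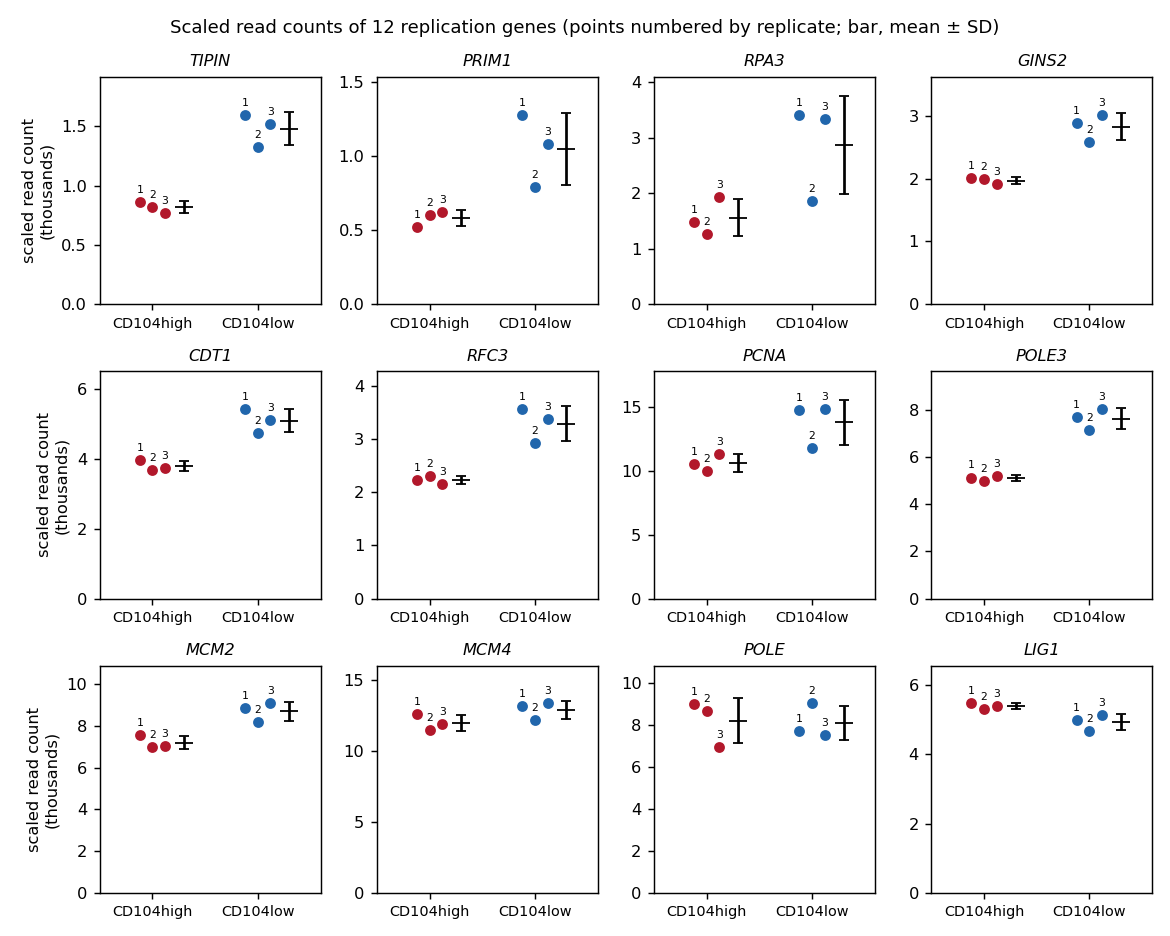
Scaled read counts are plotted from 0 for 12 genes, CD104high in red on the left and CD104low in blue on the right of each panel. Points carry the replicate number, and the bar beside them is the mean ± SD of 3 libraries. TIPIN and POLE3 separate widely, replicate 2 of CD104low is low in PRIM1, RPA3 and PCNA, and POLE interleaves.

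All 3 genes of replication protein A, which coats single-stranded DNA, fell. RPA3, the smallest subunit, encoded on chromosome 7 (GRCh38, 7636518 to 7718607), was at 1486, 1272 and 1925 scaled reads in CD104high and 3407, 1851 and 3334 in CD104low. Replicate 3 of CD104high was above replicate 2 of CD104low, so the populations overlapped. The log2 fold change of RPA3 was -0.84 and its SE a wide 0.24 (limma adjusted p = 0.02). It did not pass without replicate 1 or 2 of CD104high or replicate 1 or 3 of CD104low (adjusted p = 0.0623, 0.0626, 0.0859 and 0.0654). RPA2 was at 2927, 2566 and 2954 scaled reads in CD104high and 3708, 3316 and 3913 in CD104low (-0.37, adjusted p = 0.00924). RPA1, the large DNA-binding subunit, was at 13166, 13215 and 12724 scaled reads in CD104high and 14602, 14551 and 14638 in CD104low, a small but non-overlapping difference (-0.16, SE 0.05, adjusted p = 0.0335). The RPA1 call was lost in each of 5 leave-out fits, with adjusted p of 0.0705 to 0.095, and held without replicate 2 of CD104low. It was also lost with quantile normalization (-0.13, adjusted p = 0.106), and limma without the trend gave 0.0706 for RPA1 and 0.0632 for RPA3, neither of which passed.

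Of the genes that finish lagging-strand fragments and remove uracil, 2 of 3 fell. FEN1, the flap endonuclease, was at 7744, 7510.3 and 7180.4 scaled reads in CD104high and 9681, 8988 and 10019.6 in CD104low (log2 fold change -0.35, SE 0.06, limma adjusted p = 0.00297), without overlap and with a call in each of the 19 alternatives. UNG, the uracil glycosylase, fell (-0.23, adjusted p = 0.0234), without passing when replicate 1 or 2 of CD104high or 1 or 3 of CD104low was left out (adjusted p = 0.0802, 0.0718, 0.0777 and 0.0904), nor in limma without the trend (0.0579). LIG1, the ligase that seals the fragments, was at 5474, 5301 and 5401 scaled reads in CD104high and 4987, 4679 and 5140.1 in CD104low. All CD104high libraries were above all CD104low libraries, but the difference did not pass (0.13, 95% interval -0.01 to 0.27, adjusted p = 0.12). It passed with quantile normalization (adjusted p = 0.044), and LIG1 was at -0.05 with the length and GC correction. The annotation overlaps FEN1 with FADS2 on the same strand and with TMEM258 on the other.

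Chromatin assembly at the fork gave 1 fall among 3 genes. CHAF1A, the large subunit of the histone chaperone CAF-1, was at 5765, 5391 and 4959.9 scaled reads in CD104high and 6281, 6015 and 6400.1 in CD104low (log2 fold change -0.22, limma adjusted p = 0.0356), with -0.37 under the length and GC correction. CHAF1A did not pass without replicate 2 or 3 of CD104high or replicate 1 or 3 of CD104low (adjusted p = 0.0786, 0.087, 0.103 and 0.108), nor with quantile normalization (0.0928) or in limma without the trend (0.0784). CHAF1B was at -0.17 (adjusted p = 0.256). ASF1B, a histone chaperone of dividing cells, was at 2759, 2573 and 2676 scaled reads in CD104high and 2489, 2059 and 2468 in CD104low, above CD104low in every CD104high library and not past the threshold (0.20, 95% interval -0.0045 to 0.40, adjusted p = 0.103), though past it with quantile normalization (adjusted p = 0.0443). E2F1 was at 6791, 6099 and 7564 scaled reads in CD104high and 8503, 6781 and 9156 in CD104low, with overlap (-0.25, 95% interval -0.52 to 0.02, adjusted p = 0.12). It passed without replicate 2 of CD104low (-0.38, adjusted p = 0.0134) and after correction for length and GC content (-0.37, adjusted p = 0.0439).

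Levels between genes were compared per kilobase of the longest protein-coding GENCODE 29 transcript, which need not be the transcript expressed. PCNA was the highest, at 7802 in CD104high and 10126 in CD104low scaled reads per kilobase, followed by MCM3 at 6544 in CD104high and 7954 in CD104low and MCM7 at 6111 in CD104high and 6856 in CD104low. Among the other helicase subunits MCM2 stood at 1988 in CD104high and 2402 in CD104low, MCM5 at 2206 in CD104high and 2397 in CD104low and MCM4 at 2871 in CD104high and 3088 in CD104low. Among the GINS subunits GINS2 was at 736 in CD104high and 1057 in CD104low and GINS4 at 275 in CD104high and 329.8 in CD104low. POLA2 was the lowest, at 70.8 in CD104high and 82.7 in CD104low. These orders are descriptions on a level scale and carry no test.

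Shorter transcripts had the more negative fold changes. Of the 20 genes with a transcript under 2500 bases 17 fell, with a median log2 fold change of -0.39, and of the 30 longer genes 13 fell, with a median of -0.23. Over all tested genes the same split, chosen after the values were seen, gave 29.1% of shorter genes and 17.6% of longer genes called lower, with medians of -0.11 and 0.07. The Spearman correlation of fold change with length was 0.56 across the 50 genes and 0.23 across all tested genes, a description across genes that share the same 6 libraries. Removing the smooth dependence of each library on transcript length and GC content left 29 genes called lower, 24 of them among the 30, and a median of -0.27. Shorter and longer genes then had medians of -0.27 and -0.26, with 13 and 16 called lower, as the construction of the correction favours. RPA3 (-0.70), CDT1 (-0.60), TIPIN (-0.56) and GINS2 (-0.50) were then the lowest. The cause of the dependence on length was not tested. Some reads are uncertain in origin, because no source used here gives strandedness and annotated genes overlap CHAF1B (MORC3) on the same strand and GINS2 (GSE1), RFC4 (EIF4A2), RFC5 (WSB2), RPA3 (UMAD1) and RPA1 (SMYD4), among others, on the other. Pseudogenes are annotated for RPA2, UNG, FEN1, RFC3, RFC5 and POLD2 as well as PCNA.

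**Figure D4:**
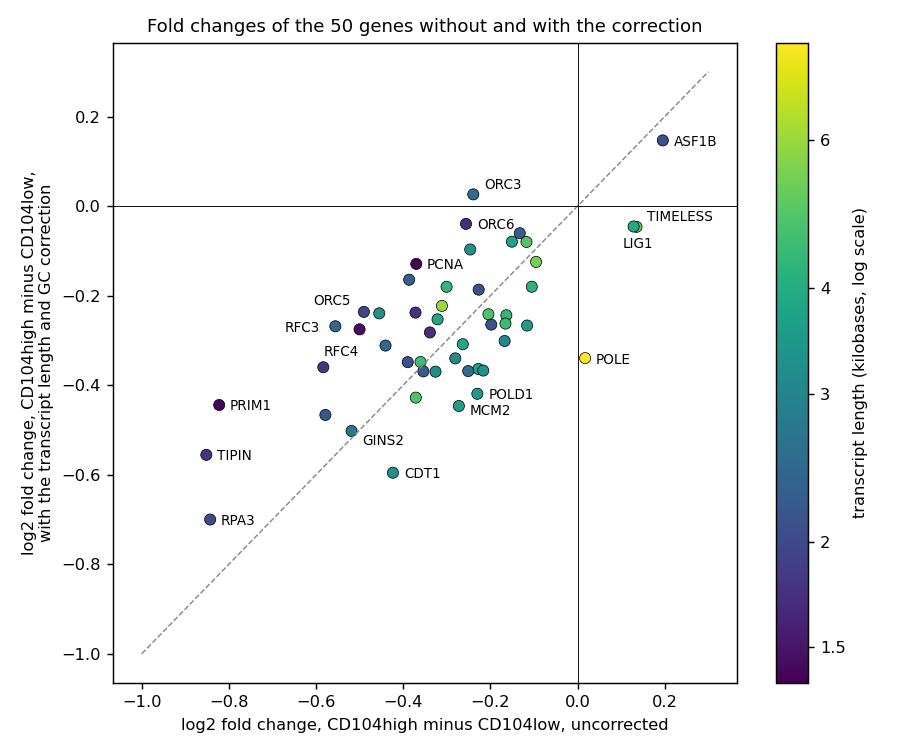
Each point is a replication gene, with the uncorrected log2 fold change (CD104high minus CD104low) on the x axis and the corrected value on the y axis. Colour gives transcript length on a log scale, and the dashed line marks equal values. Short genes such as PRIM1, PCNA and ORC6 lie above the line, the longest, POLE, lies far below it, and 48 of 50 corrected values are below 0.

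Other genes of the pathway fell more often than they rose. Of 38 further replication factors 18 fell and 2 rose, with a median log2 fold change of -0.25. Among all tested genes 21.6% fell and 21.8% rose, with a median of 0.02. GMNN, the CDT1 inhibitor geminin, was at 3312, 3564 and 3783 scaled reads in CD104high and 6437, 5315 and 6533 in CD104low (-0.77, limma adjusted p = 0.000545, or -0.48 with the length and GC correction), and SSRP1, a subunit of the histone chaperone FACT, fell by 0.53 on the log2 scale. The rises were POLD4, the smallest polymerase delta subunit, at 654, 689 and 687 scaled reads in CD104high and 388, 382 and 318 in CD104low (0.90, adjusted p = 0.000693), and the topoisomerase gene TOP2A (0.34, adjusted p = 0.00365). POLD4 thus stood on the other side of 0 from POLD1, POLD2 and POLD3. Nucleotide supply gave 16 falls and 0 rises among 22 genes with a median of -0.30. In edgeR and DESeq2 17 and 17 fell and 0 rose, and 0 rose in limma at an unadjusted p under 0.05. The purine enzymes PAICS (-0.77) and PPAT (-0.62), thymidylate synthase TYMS (-0.56) and the ribonucleotide reductase subunit RRM2 (-0.33) fell, while the thymidine kinase TK1 was at 14725, 13098 and 14286 scaled reads in CD104high and 14728, 13018 and 15646 in CD104low (-0.04, adjusted p = 0.712). PPAT was at -0.39 with the length and GC correction. TYMS did not pass without replicate 1 of CD104high or of CD104low (adjusted p = 0.0543 and 0.0537), nor RRM2 without replicate 2 of CD104high or 1 or 3 of CD104low (0.052, 0.0671 and 0.0501).

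Regulators of S phase entry fell in part. Of 11 tested G1 and S cyclins and kinases 8 fell and 1 rose, against 21.6% and 21.8% of all tested genes, with a median of -0.40. The phosphatase gene CDC25A (-0.78) and CCNE2, which encodes cyclin E2 (-0.75, or -0.46 with the length and GC correction), fell, and CCND1, cyclin D1, rose (0.24, limma adjusted p = 0.00967) and was at 0.13 (adjusted p = 0.0714) with the correction. In the E2F and retinoblastoma list, which also holds E2F1, 9 of 18 genes fell and 2 rose. E2F4, a repressor-type E2F, was at 5439, 5483 and 4871 scaled reads in CD104high and 8154, 7618 and 7786 in CD104low (-0.58, adjusted p = 0.000507), and MYBL2 fell (-0.33). RBL2, the pocket protein p130 of resting cells, rose (0.59, adjusted p = 0.000739), as did TFDP2 (0.27), which was at 0.01 (adjusted p = 0.879) with the correction. TFDP2 did not pass when replicate 1 of CD104low was left out (adjusted p = 0.0547). Among 8 MYC and partner genes 4 fell, 2 rose and 2 were not called. The share that rose was near the 21.8% of all tested genes. MYC (-0.67) and its target ODC1 (-1.46) were lower, while MXD4 (0.46, or 0.24 corrected) and MNT (0.41), which oppose MYC, were higher. MXI1, on the same list, was not called higher. The MNT call was lost once length and GC content were corrected for (0.13, adjusted p = 0.328) and in limma without the trend (0.0515). MNT also did not pass without replicate 1 or 2 of CD104high or 1 or 3 of CD104low (adjusted p = 0.0661, 0.062, 0.0745 and 0.0673).

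Inhibitors of cyclin-dependent kinases and arrest genes gave 4 rises and 1 fall among 10 tested genes and a median of 0.17. The other 5 were not called. Among all tested genes 21.8% rose and 21.6% fell. CDKN1A, the inhibitor p21, was at 5076, 4308 and 5655 scaled reads in CD104high and 2133, 2256 and 1911 in CD104low (log2 fold change 1.25, SE 0.11, limma adjusted p = 0.000235). CCNG2, an atypical cyclin of resting cells, rose (0.83, adjusted p = 0.00141). GADD45A fell (-0.30, adjusted p = 0.0192), was at -0.19 (adjusted p = 0.0586) with the correction, and did not pass without replicate 1 or 2 of CD104high or 1 or 3 of CD104low (0.0612, 0.0671, 0.0806 and 0.0528).

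**Figure D5:**
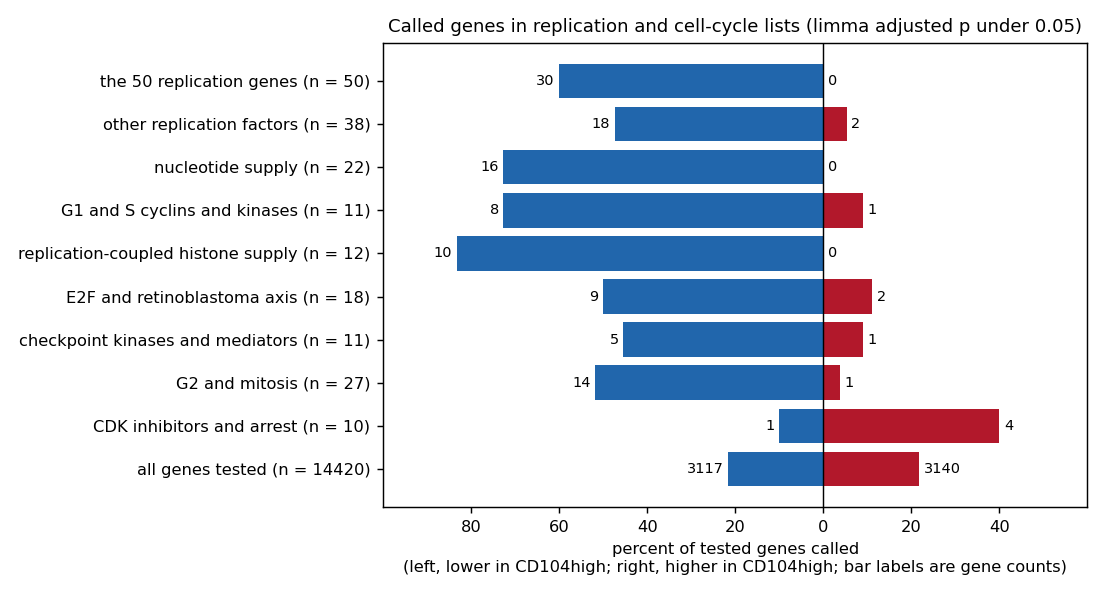
Bars give the percent of tested genes called in 9 replication and cell-cycle lists, to the left for lower and to the right for higher in CD104high, with gene counts at the bar ends and all tested genes in the bottom row. The 50 replication genes have 30 calls to the left and 0 to the right. Of the 8 other lists shown, only the joint list of cyclin-dependent kinase inhibitors and arrest genes has more calls to the right than to the left.

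Histone supply genes gave 10 falls and 0 rises among 12, against 21.6% and 21.8% of all tested genes, with a median of -0.67. In edgeR and DESeq2 10 and 10 fell and 0 rose, and 0 rose in limma at an unadjusted p under 0.05. H2AZ1, a variant histone H2A, was at 16580.3, 17442 and 16922 scaled reads in CD104high and 30956, 24738 and 30117 in CD104low (-0.75, limma adjusted p = 0.000507, or -0.48 with the length and GC correction), and LSM10, a subunit of the histone pre-mRNA processing particle, fell (-0.68). Checkpoint genes gave 5 falls and 1 rise among 11, with CDC25C (-0.50) and RAD1 (-0.40) lower and ATM (0.38, adjusted p = 0.0375) higher. ATM did not pass without replicate 1 or 2 of CD104high or 1 or 3 of CD104low (adjusted p = 0.111, 0.103, 0.134 and 0.12), nor once length and GC content were corrected for (0.28, adjusted p = 0.0592), in edgeR (0.0616) or in limma without the trend (0.0937). Of 27 G2 and mitosis genes 14 fell and 1 rose, with a median of -0.25. CDC20 (-0.65) and CENPE (-0.58) fell and CENPF rose (0.41), and the proliferation marker MKI67 was at 44084, 40676 and 35136 scaled reads in CD104high and 31641, 39245 and 36802 in CD104low (0.15, 95% interval -0.08 to 0.39, adjusted p = 0.263), with the populations overlapping. After correction for length and GC content MKI67 was at -0.17 (adjusted p = 0.0559), so its direction turned.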

How the data were processed

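RNA sequencing of 3 CD104high and 3 CD104low samples was deposited by the authors as 1 table of scaled read counts per gene, with their log2 fold changes and p-values. Per the submitters' processing notes the tools included Salmon 1.3.0, DESeq2 and FastQC and the build was GRCh38 (hg38). No source used here gives the annotation, the filters or the model. The deposited values are a signal per gene: whole reads divided by 1 size factor per library, since dividing each library by its smallest step gave whole numbers for all values within 0.01. For replicates 1 and 2 of CD104low that step lies too near 1 to check in the same way. Recovered reads numbered 49791498 to 60069719 per library, and intervals from limma cover the spread between libraries. Such scaling leaves effects of transcript length and base composition in place. No pair of replicates held identical values.

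Values of at least 10 in 3 samples were required, which left 14420 genes. log2(value + 1) was tested with limma 3.58.1 (trend, R 4.3.3) between the populations, with p-values adjusted by Benjamini-Hochberg over these genes and a threshold of 0.05. On the log2(value + 1) scale, fold changes of genes with few reads come out too small. Recovered reads were tested with edgeR 4.0.16 (quasi-likelihood) and DESeq2 1.42.0 as alternatives. Other alternatives changed the pseudocount, filter, scaling and trend, left out each library, added the replicate number as a block, or removed splines (5 degrees of freedom) on transcript length and GC content from each library. GENCODE 29 gave a transcript length for 99.8% of genes. The test was tried on simulated data first. Promoters came from RefSeq (GRCh38.p14).

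All 50 genes are named, and of each related list the 2 genes with the smallest p in each direction past the threshold, with CDKN1A, MYC, CCNE2, CCND1, RRM2, TYMS, TK1, MKI67, TOP2A and CDC20. ITGB4, CD44 and KMT2C are named as checks of the labels. The members and lists were chosen with earlier results of these data known.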

Additional observations from a re-analysis of the deposited data

How the results depend on the processing

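The median log2 fold change of the 50 genes stayed between -0.32 and -0.26 in the 19 alternatives. The count of genes called lower ranged from 19 to 39 when 1 library was left out, and all 19 were among the 30. It was 32 in edgeR, 33 in DESeq2, 24 without the trend and 28 with quantile normalization. The count called higher was 0 in the other alternatives, leave-out fits included, but 2 with quantile normalization (LIG1 and ASF1B) and 1 with the replicate block (ASF1B). POLE reversed to -0.34 with the length and GC correction, with and without the replicate block, and MKI67 reversed to -0.17 with the correction, passing only with the replicate block added (adjusted p = 0.0259). With the replicate number as a block 38 genes were called lower, all 30 and E2F1 (adjusted p = 0.0038) among them, and 40 with the length and GC correction added. Deviations of same-numbered libraries correlated at 0.08, 0.36 and 0.32 for replicates 1, 2 and 3, so the numbers were not taken to pair the samples, although each library correlated best with its own number, a hint from the data and not the design. Of the 30 called genes 17 kept their call in every alternative and 13 lost it in 1 or more, and 16 uncalled genes gained one. Causes were not tested. Depth bears most on POLA2, the lowest per kilobase, which had 243 to 325 scaled reads per library.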
